A study of Mus musculus with 16 samples.

Results

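The difference between TrkA/C knock-in (KI) and wild-type (WT) mice, averaged over both injections, was measured here. It was read for stress pathways and gene families outside the classic nociceptor and A-fibre markers. All 16 RNA-seq libraries of the study entered the comparison, 8 KI against 8 WT by their titles, with the injection as part of the model. Lumbar dorsal root ganglia, which hold the cell bodies of sensory neurons, came from C57BL/6 mice aged 10 to 12 weeks. Mice had received saline, the vehicle, or complete Freund's adjuvant (CFA, an oil suspension that inflames the joint) into 1 ankle, and ganglia of that side were taken 14 days later. The groups were WT with saline, WT with CFA, KI with saline and KI with CFA, with 4 libraries each, and a library pooled 6 ganglia from 2 mice of a group. The labels do not describe the TrkA/C allele, whether it is homozygous, or littermate controls. For WT CFA 1 the genotype tag reads knock-in against its title, and it was kept as WT after the check below.

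Of 15507 genes tested, 312 stood on at least 1 of 14 stress lists and 1232 in at least 1 of 60 gene families. All tested members of these lists were counted whatever their values, while the genes named were mostly taken for their call, size or p. A called gene is one that edgeR's quasi-likelihood test put under 0.05 after Benjamini-Hochberg adjustment over all genes tested. Levels are CPM (a gene's count scaled to the library total, with TMM factors), differences are log2 fold changes of KI against WT ± SE, and levels of different genes are not compared since gene length was not taken into account.

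TrkC, the product of Ntrk3, is the receptor by which large touch and position sensing neurons answer neurotrophin-3. It is a receptor tyrosine kinase that signals through MAP kinases, phosphoinositide 3-kinase and phospholipase C. Stress responses such as the unfolded protein response, the heat shock response and the antioxidant program driven by NRF2 are switched on in most cell types by damaged protein, oxidants or nutrient loss, and several are known in sensory neurons after nerve injury.

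Ntrk3 had 29.3 CPM in the lowest, 46.8 in the median and 61.4 in the highest WT library, against 99.1, 114 and 138 CPM in KI. The genotypes did not overlap, and WT CFA 1 had 48.4 CPM, within the range of the other WT libraries. Ntrk3 (Entrez 18213, chr7:78179986-78581034, build mm10) rose by 1.29 ± 0.10 (edgeR adjusted p = 2.68e-07). Its log2 fold change was 1.44 with saline and 1.13 with CFA.

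Library totals ran from 22742209 to 40910947 counts. Ganglion cell types were all detected: the mean log2 CPM over the 16 libraries lay between 5.70 and 7.30 for the neuronal marker lists, for 9 satellite glia markers between 6.79 and 7.28 and for 13 Schwann cell markers between 6.34 and 6.99. The neuronal lists differed between genotypes without overlap: 48 nociceptor markers averaged 6.02 to 6.20 in WT and 5.70 to 5.91 in KI, with 30 called (8 higher, 22 lower), and 24 A-fibre markers 6.54 to 6.76 in WT and 6.82 to 7.30 in KI, with 14 called (12 higher, 2 lower). The part of this shift in the results on families and stress lists was not tested beyond counts without these marker genes. Of the 9 satellite glia and 13 Schwann cell markers none was called. Of 21 skeletal muscle markers 16 were called higher in KI, with mean log2 CPM of 4.86, 2.43 and 4.92 in KI saline 1, 3 and 4 and of 1.77 in KI CFA 2, against -1.20 to 1.91 in WT, where WT saline 4 was highest. In each library 0 to 3 of the 21 were at 0 counts, and Acta1, Myh1 and Myh4 were above 0 in all 16. Beyond the fits with a muscle covariate or without these 4 KI libraries, the part of this RNA in the results was not tested. The latter fit left KI saline 2 as the only library of its group. Its counts of calls are therefore given only among the processing alternatives, and no conclusion is drawn from them. Neutrophil and marrow markers averaged 4.05 in KI CFA 3 and -1.46 to 1.01 in the other 15, and 0 of 12 were called. Axon injury transcripts stood highest in WT CFA 1 and 2 (5.39 and 5.26, against 3.57 to 4.87 elsewhere), and 7 of 21 were called, all lower in KI. In whole ganglia, fewer cells of a type and less RNA per cell cannot be told apart.

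Over both injections edgeR called 1390 genes, 8.96% of those tested, of which 671 (4.33%) were higher and 719 (4.64%) lower in KI. Most differences were small, with a median size of 0.29 on the log2 scale and 1136 of them (81.7%) under 1.5-fold. Alone, saline gave 673 calls (4.34%) and CFA 441 (2.84%). Of the 1390 genes 238 were called in both, 340 with saline only, 184 with CFA only and 628 with neither alone. No gene was called for an interaction of genotype and injection in edgeR (0%, smallest adjusted p = 0.718) or in DESeq2, while 976 had an unadjusted edgeR p under 0.05. In 356 genes (2.3%) the 8 KI and 8 WT libraries did not overlap in CPM.

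The gene families and the stress lists differed in how many of their members were called. Both kinds of list were written with earlier results of these data known, so the shares are a description. In the families 231 of 1232 genes (18.8%) were called, 108 higher and 123 lower, with a median log2 fold change of 0.04 against 0.00 over all genes. On the stress lists 24 of 312 genes (7.69%) were called, 4 higher and 20 lower, with a median of -0.04. Among the better covered genes (10 CPM or more on average) the shares were 22.4% in the families, 8.43% on the stress lists and 10.8% over all genes. Leaving out the genes that also mark nociceptors, A-fibres or other cell types left 218 of 1197 family genes (18.2%) and 23 of 306 stress genes (7.52%). With the muscle score as a covariate the shares were 10.9% in the families, 4.49% on the stress lists and 4.53% over all genes. Without KI CFA 3 the stress lists had 14 calls (4.47%, against 14.1% in the families and 6.35% over all genes). Without WT CFA 3 they also had 14 (4.47%, against 15.1% in the families and 6.57% over all genes). Calls were thus fewer over all genes too. The counts per list or family given below for fits with a library left out were not set against that share.

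**Figure D1:**
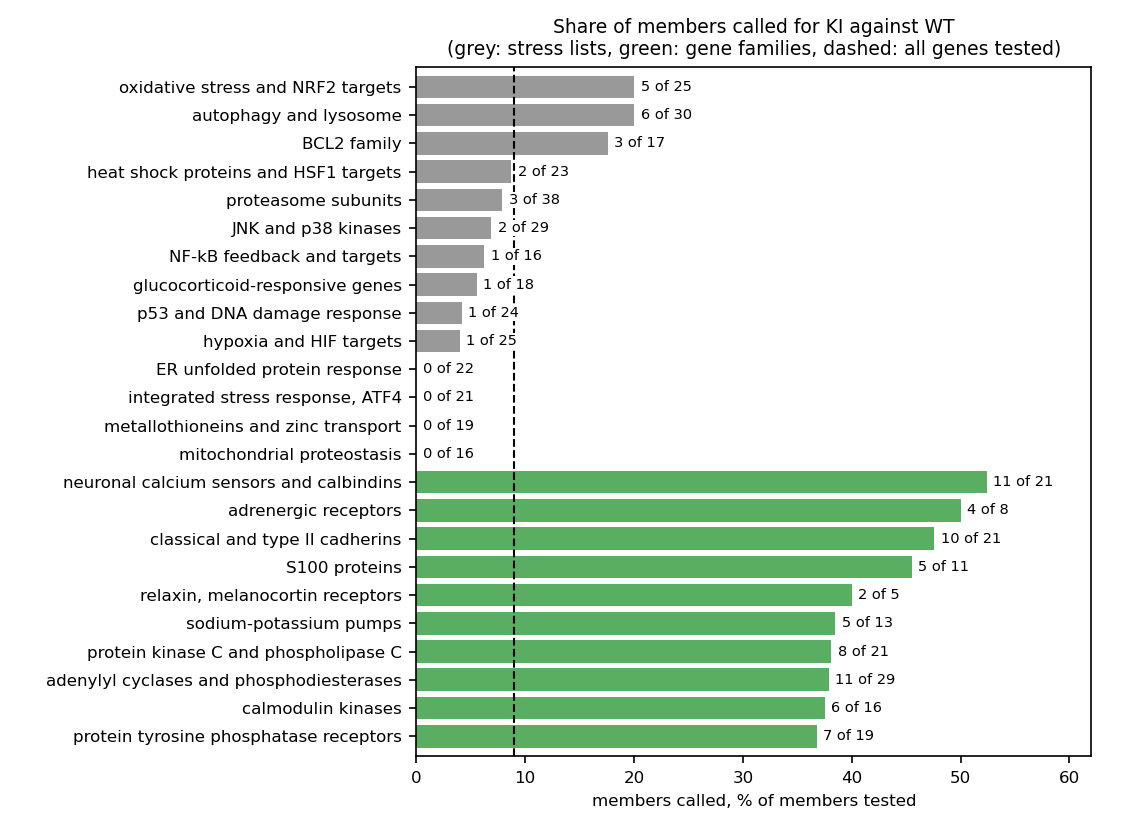
Share of tested members called for KI against WT (x axis, %), for the 14 stress lists (grey bars) and the 10 gene families with the highest share (green bars), with called and tested members beside each bar. The dashed line is the share over all genes, 8.96%; 3 stress lists pass it, and the families shown were chosen for passing it.

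The stress lists fell into 3 kinds: 4 had no call, 7 had a share of calls under that of all genes, and 3 lay above it (oxidative stress, autophagy and lysosome, BCL2 family). In 13 of the 14 the median log2 fold change was within 0.1 of 0, the exception being the proteasome.

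None of 22 genes of the unfolded protein response of the endoplasmic reticulum was called, and they stayed within -0.15 and 0.15 of WT on the log2 scale. Hspa5, the chaperone BiP that is the usual readout of this response, had 269, 296 and 336 CPM (lowest, median, highest) in WT and 263, 288 and 342 CPM in KI, which overlap almost fully. The smallest p values were those of Hyou1, a BiP partner (0.10 ± 0.04, edgeR adjusted p = 0.0786), and Sel1l, a subunit of the degradation complex of this compartment (0.08 ± 0.03, edgeR adjusted p = 0.126). In DESeq2 Hyou1 was called (0.11).

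The integrated stress response and its ATF4 targets also gave 0 calls in 21 genes. Chac1, which degrades glutathione, ran from 3.92 to 6.73 CPM in WT and from 3.75 to 4.78 in KI, with a log2 fold change of -0.29 ± 0.10 (edgeR adjusted p = 0.0831). Trib3, a pseudokinase induced by ATF4, had -0.47 ± 0.16 (edgeR adjusted p = 0.0831). Both sets overlapped, and Chac1 was called only without WT saline 1 (-0.34) and Trib3 without KI CFA 2 (-0.55) or in DESeq2 (-0.46). Atf4 itself had a median of 161 CPM in WT and 166 CPM in KI.

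The 19 metallothioneins and zinc transporters and the 16 genes of mitochondrial protein quality control had 0 calls each. Mt3, the neuronal metallothionein, had 110, 130 and 182 CPM in WT and 96.5, 117 and 132 in KI (-0.22 ± 0.07, edgeR adjusted p = 0.0623). It passed the test without KI saline 2, WT CFA 2, WT saline 1 or WT saline 2 (-0.25 in each), without WT CFA 1 and 2 together (-0.28) and in DESeq2 (-0.22). Its difference was -0.41 with saline and -0.03 with CFA, but that change with injection did not pass after adjustment (unadjusted p = 0.0179). Slc39a14, a zinc importer, had 0.17 ± 0.07 (edgeR adjusted p = 0.136), and the mitochondrial protease subunit Spg7 had -0.12 ± 0.04 (edgeR adjusted p = 0.0642), with a call without KI CFA 2 (-0.14), in DESeq2 and in limma-voom (both -0.12). Phb, prohibitin of the inner membrane, had -0.11 ± 0.05 (edgeR adjusted p = 0.192).

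Of 23 heat shock genes 2 were called (8.7%, against 8.96% of all genes), 1 lower and 1 higher. Hspb1, also on the axon injury list, which encodes the small heat shock protein HSP27 that binds unfolded protein and protects injured sensory neurons, had 227, 249 and 294 CPM in WT and 173, 211 and 220 CPM in KI. The 8 libraries of each genotype did not overlap, although the gap between the nearest KI and WT libraries was narrow. Hspb1 (Entrez 15507, chr5:135887919-135889563) fell by 0.31 ± 0.05 (edgeR adjusted p = 0.00125), and the call held under every alternative run.

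Hspb6, a small heat shock protein abundant in muscle, had 11.6, 13.4 and 14.9 CPM in WT and 15.1, 17.2 and 41.2 CPM in KI, with the highest values in KI saline 4 (41.2) and KI saline 1 (23.3). Those are the 2 libraries with the highest muscle scores (4.92 and 4.86). It rose by 0.60 ± 0.15 (edgeR adjusted p = 0.0175). With the muscle score as a covariate the difference was 0.29 (edgeR adjusted p = 0.264), and without the 4 KI libraries richest in muscle RNA 0.28. Without WT CFA 1 and 2 it was 0.58 (edgeR adjusted p = 0.0573).

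The other 21 heat shock genes were not called. Hspa8, the constitutive HSC70, had a median of 3560 CPM in WT and 3702 in KI, and Hsp90aa1, the inducible HSP90, 1878 and 1884 CPM. The inducible HSP70 genes Hspa1a and Hspa1b varied between libraries (3.57 to 10.2 CPM in WT and 3.21 to 11.4 in KI for Hspa1a). They are near-identical copies, so reads may have been split between them.

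Of 25 oxidative stress genes 5 were called, all lower in KI (20%, a share equal to that of the autophagy list, against 8.96% of all genes). Gpx3, a secreted glutathione peroxidase, showed the largest fall among the called genes of the stress lists. Its level was 117, 156 and 198 CPM in WT and 79.9, 100 and 111 CPM in KI, and no KI library reached the lowest WT library. Gpx3 (Entrez 14778, chr11:54902854-54910387) fell by 0.69 ± 0.10 (edgeR adjusted p = 0.000182), by 0.75 with saline and by 0.62 with CFA.

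The other 4 are enzymes of glutathione use and thiol repair. Gsta4, which conjugates lipid aldehydes to glutathione, had 13.4, 15.1 and 16.7 CPM in WT and 9.28, 11.9 and 13.9 in KI, and fell by 0.36 ± 0.08 (edgeR adjusted p = 0.00727). Gclm, the regulatory subunit of the enzyme that starts glutathione synthesis, fell by 0.18 ± 0.04 (edgeR adjusted p = 0.00623) from a median of 107 to 92.9 CPM. Gstp1 fell by 0.20 ± 0.05 (edgeR adjusted p = 0.0205), with a near-identical copy, Gstp2, next to it in the genome, and its call ended without KI CFA 3 (-0.17).

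Srxn1, sulfiredoxin, was at the edge of the test (-0.14, edgeR adjusted p = 0.0491): 13 of the 16 fits without 1 library ended its call (-0.15 to -0.12), those without KI saline 2, WT CFA 4 and WT saline 3 being the exceptions. Without KI CFA 3 the list had 3 calls. NRF2 itself (Nfe2l2) had a median of 55.9 CPM in WT and 57.5 in KI, and Hmox1, a well known target, was at 0.17 (SE 0.05, edgeR adjusted p = 0.0502) without passing. Of the 25 genes 18 were below 0, with a list median of -0.06 (-0.14 with saline, -0.04 with CFA). The mean log2 CPM of the list was highest in WT saline 4 (6.04, against 5.68 to 5.90 in the other 15).

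The promoters of the called genes of the oxidative stress and of the autophagy list, which had equal shares, were read for letters bound by stress factors. RefSeq windows (GRCm38.p6, from 250 bases before to 50 after the start) were found for 8 of the 11 genes. The antioxidant element, TGACNNNGC on either strand, was in 2 of 4 windows of the oxidative list (Gclm, Srxn1) and in 2 of 4 of the autophagy list (Ctsd, with 2 matches, and Ctsz), and in 12.4% of 32851 promoter windows of the same length. The 4 windows of the oxidative list and that of Ctsd are shown, the first as the called list for which the element is best known and the last as the window with the most matches, although the call of Ctsd was lost in 14 of the 16 fits without 1 library. Capitals mark matches to TGACNNNGC on either strand. No other spelling of the antioxidant element was searched, so TGAGTCAGC, in the windows of Srxn1 and Gstp1, is not marked. The positions are chr3:122245307-122245606 (plus strand) for Gclm, chr2:152105274-152105573 (plus) for Srxn1, chr11:54902604-54902903 (plus) for Gpx3, chr19:4037863-4038162 (minus) for Gstp1 and chr7:142387778-142388077 (minus) for Ctsd.
Gclm: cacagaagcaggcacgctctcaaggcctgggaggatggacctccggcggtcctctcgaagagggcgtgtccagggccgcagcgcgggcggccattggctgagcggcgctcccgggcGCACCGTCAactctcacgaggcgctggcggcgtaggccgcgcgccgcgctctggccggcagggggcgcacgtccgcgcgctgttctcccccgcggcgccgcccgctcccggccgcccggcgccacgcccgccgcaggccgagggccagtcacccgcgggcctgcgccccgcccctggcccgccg
Srxn1: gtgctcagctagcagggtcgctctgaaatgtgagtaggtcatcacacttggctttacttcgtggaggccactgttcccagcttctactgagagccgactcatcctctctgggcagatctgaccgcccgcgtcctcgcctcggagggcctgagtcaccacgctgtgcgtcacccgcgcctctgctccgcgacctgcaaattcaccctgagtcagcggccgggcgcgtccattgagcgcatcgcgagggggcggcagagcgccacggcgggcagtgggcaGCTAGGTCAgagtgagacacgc
Gpx3: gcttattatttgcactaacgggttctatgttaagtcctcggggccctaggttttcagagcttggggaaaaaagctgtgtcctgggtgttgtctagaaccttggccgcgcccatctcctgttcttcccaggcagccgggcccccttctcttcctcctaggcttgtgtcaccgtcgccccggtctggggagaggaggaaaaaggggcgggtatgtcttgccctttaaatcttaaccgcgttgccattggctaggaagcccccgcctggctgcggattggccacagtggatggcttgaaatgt
Gstp1: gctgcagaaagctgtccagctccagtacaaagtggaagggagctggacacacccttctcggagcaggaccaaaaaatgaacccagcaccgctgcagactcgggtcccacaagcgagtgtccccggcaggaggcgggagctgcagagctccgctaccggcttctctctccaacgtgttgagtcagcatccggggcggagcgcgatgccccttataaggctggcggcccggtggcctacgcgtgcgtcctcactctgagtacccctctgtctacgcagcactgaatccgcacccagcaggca
Ctsd: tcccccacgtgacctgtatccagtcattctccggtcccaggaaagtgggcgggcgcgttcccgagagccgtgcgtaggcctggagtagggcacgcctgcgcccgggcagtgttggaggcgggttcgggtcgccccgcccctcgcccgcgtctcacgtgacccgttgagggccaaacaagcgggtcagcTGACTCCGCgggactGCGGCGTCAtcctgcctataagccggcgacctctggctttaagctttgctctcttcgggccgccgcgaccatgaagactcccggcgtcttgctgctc

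Gpx3, with the largest fall, had none of the 7 motifs searched in its window. Of the spellings searched Gstp1 had the hypoxia element alone. The hypoxia element ACGTG, found in 19.6% of all windows, was in those of Gclm, Gstp1 and Ctsd, in Ctsd at 2 places on both strands. The metal element TGCNCNC is so short that 51% of all windows hold it, and it was in Gclm, Srxn1, Lamp2, Ctsd and Ctsz. The heat shock element (0.603% of windows; 13 positions), the cAMP element TGACGTCA (1.79%), the endoplasmic reticulum stress element (0.119%) and the EGR element GCGTGGGCG (0.612%) were in none of the 8. The window of Npc2 also held no match. These letters are a description of the windows and say nothing on binding.

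Autophagy and lysosome genes gave 6 calls in 30 (20%, against 8.96% of all genes), all lower in KI. Ctsz, a lysosomal peptidase, had 67.5, 73.9 and 86.3 CPM in WT and 57.7, 64.7 and 70.3 CPM in KI, and fell by 0.22 ± 0.05 (edgeR adjusted p = 0.00729). Npc2, which hands cholesterol out of the lysosome, fell by 0.14 ± 0.04 (edgeR adjusted p = 0.0187). Its call was lost with the muscle score as a covariate (-0.14). Becn1, beclin 1 of the kinase complex that starts autophagosomes, was lower in every KI library than in any WT library (median 111 against 119 CPM), by a narrow margin, and fell by 0.16 ± 0.04 (edgeR adjusted p = 0.0265).

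Several of these calls hung on single libraries. That of Becn1 ended without KI CFA 2, KI CFA 4 or KI saline 4 (-0.15 in each) or WT CFA 3 (-0.13). Lamp2, a lysosomal membrane protein (-0.13 ± 0.04, edgeR adjusted p = 0.0291), lost its call without KI CFA 2, KI CFA 3, KI saline 1, KI saline 4, WT CFA 3, WT CFA 4 or WT saline 3 (-0.13 to -0.12). With the muscle score as a covariate Lamp2 lost its call too (-0.12). Map1lc3a, an LC3 protein of the autophagosome membrane (-0.16, edgeR adjusted p = 0.0313), lost it without 8 of the 16 libraries (KI CFA 2, 3 and 4, KI saline 3 and 4, WT CFA 3 and 4, WT saline 3; -0.16 to -0.14). The protease Ctsd (-0.10, edgeR adjusted p = 0.0486) kept it only without KI saline 2 or WT saline 1 (-0.11 to -0.09 over all 16). The list had 2 calls without KI CFA 2, KI saline 4 or WT CFA 3, and 2 with the muscle score as a covariate. It had 3 without KI CFA 3, KI CFA 4, WT CFA 4 or WT saline 3. Its median was -0.08, and 22 of 30 genes were below 0.

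Proteasome subunits were the most uniform list: all 38 tested had a log2 fold change below 0, with a median of -0.12, yet 3 passed the test, Psmb3 (-0.20 ± 0.06, edgeR adjusted p = 0.033), Psma7 (-0.23 ± 0.07, edgeR adjusted p = 0.0415) and Psmb9 (-0.47 ± 0.14, edgeR adjusted p = 0.0384). Psmb3 and Psma7 are parts of the 20S core, and Psmb9 is a subunit of the immunoproteasome. The medians were -0.17 with saline and -0.05 with CFA. WT saline 4 stood apart here, with a mean log2 CPM of 6.48 for the list against 6.20 to 6.34 in the other 7 WT and 6.01 to 6.23 in the 8 KI libraries.

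Without WT saline 4 the proteasome median was -0.08 and 37 of 38 genes lay below 0. Psma7 shows the pattern, with 174 CPM in WT saline 4, 114 to 139 in the other WT libraries and 96.8 to 125 in KI. The number called ran from 0 to 5 when 1 library was left out: 0 without KI CFA 4, KI saline 4 or WT CFA 4, 1 without KI CFA 2, KI CFA 3, KI saline 1 or WT CFA 3 and 5 without WT saline 1. DESeq2 called 7, the fit without WT CFA 1 and 2 called 8, and the replicate block 1. Single genes lost the call without KI CFA 3, KI CFA 4, KI saline 2, KI saline 4, WT CFA 3 or WT CFA 4 (Psmb3, -0.20 to -0.18), without KI CFA 2, 3 or 4, KI saline 1, 3 or 4 or WT CFA 3 or 4 (Psma7, -0.23 to -0.20), and without KI CFA 1, 2 or 4, KI saline 1 or 4, WT CFA 2 or 4 or WT saline 1 or 2 (Psmb9, -0.47 to -0.37).

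In the BCL2 family, which sets the threshold of mitochondrial cell death, 3 of 17 genes were called (17.6%, against 8.96% of all genes). Bcl2, the founding survival gene, had 73.7, 79.2 and 80.7 CPM in WT and 53.5, 63.6 and 70.6 CPM in KI, without overlap. Bcl2 (Entrez 12043, chr1:106538176-106714290) fell by 0.31 ± 0.04 (edgeR adjusted p = 3.16e-05), by 0.24 with saline and by 0.38 with CFA, and kept its call under every alternative run. The 4 lowest values were those of the 4 KI libraries with CFA (53.5 to 62.4 CPM, against 64.8 to 70.6 CPM in KI with saline).

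Hrk, a death promoting member known from neurons deprived of nerve growth factor, went the other way. It is a low transcript, at 0.221, 0.698 and 0.891 CPM in WT and 0.611, 1.19 and 1.65 CPM in KI, so the genotypes overlapped. It rose by 0.91 ± 0.23 (edgeR adjusted p = 0.0157), with 7 of 8 KI libraries above the WT median. Hrk was called without each library left out in turn, but not without WT CFA 1 and 2 (0.88, edgeR adjusted p = 0.0529). Without the 4 KI libraries richest in muscle RNA its difference was 1.02. Bax, a death effector also on the p53 list, fell by 0.26 ± 0.08 (edgeR adjusted p = 0.0398). That call stayed only without KI saline 1, WT CFA 2, WT saline 1 or WT saline 2, and in the 12 other fits the difference was -0.27 to -0.20. Bcl2l1 and Mcl1, the other main survival genes, had log2 fold changes of -0.05 and 0.02.

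Beside Bax no gene of 24 on the p53 and DNA damage list was called, Cdkn1a (-0.01) included. Of 25 hypoxia genes Pfkfb4, a regulator of glycolysis, fell (-0.24 ± 0.06, edgeR adjusted p = 0.0103), from a median of 22.3 to 18.7 CPM, and the list had 3 calls without KI saline 4. Of 18 glucocorticoid-responsive genes Zbtb16, a zinc finger repressor, was called (0.34 ± 0.11, edgeR adjusted p = 0.0488), at 0.64 with saline and 0.05 with CFA. It kept the call only without KI CFA 2, KI saline 4, WT CFA 2 or WT saline 3, with 0.28 to 0.37 in the other 12 fits without 1 library. Fkbp5, a standard glucocorticoid target, was at -0.07.

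Of the 29 genes of the JNK and p38 pathways 2 were called (6.9%, against 8.96% of all genes). Map3k1, a kinase at the head of the JNK cascade, rose by 0.23 ± 0.05 (edgeR adjusted p = 0.0114), from 24.8 to 30.7 CPM in WT to 29.9 to 36.5 in KI. Mapk11, p38 beta, fell by 0.14 ± 0.04 (edgeR adjusted p = 0.0244), a call that ended without KI CFA 3, KI saline 2 (both -0.12), KI saline 4 (-0.13) or WT CFA 3 (-0.11). The injury factors Atf3 (-0.60, edgeR adjusted p = 0.155) and Jun (-0.14, edgeR adjusted p = 0.188) were not called. Atf3 reached 32.4 CPM in WT CFA 2, with a median of 12.1 in WT and 9.36 in KI.

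Of 16 NF-kB feedback genes Tnip1, which dampens this pathway with A20, fell by 0.42 ± 0.09 (edgeR adjusted p = 0.00563). Its level was 68.4, 85.6 and 112 CPM in WT and 61.5, 66.0 and 73.4 CPM in KI. The KI libraries kept close together while WT spread, and the ranges overlapped. Tnip1 (Entrez 57783, chr11:54910787-54962956) lies 399 bases from Gpx3, so 2 of the called stress genes are neighbours. Reads could not be assigned to strands here, since the strand mode of the counting is not given.

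**Figure D2:**
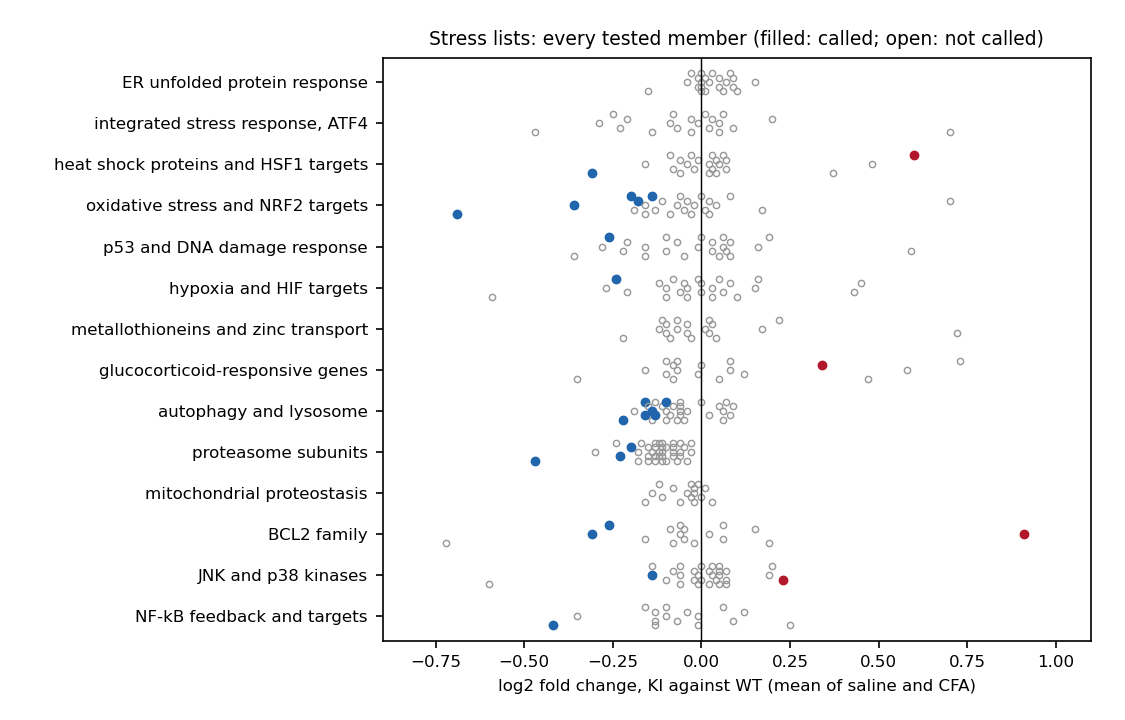
Log2 fold change of KI against WT (x axis) of every tested member of the 14 stress lists (rows). Filled points were called (red higher, blue lower) and open points were not; calls lie mostly left of 0, and all 38 proteasome genes do.

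Among the 60 families, 47 had a share of calls above 8.96%, and 3 (laminins, SOX factors, metabotropic glutamate receptors) had 0 calls. The 10 families with the highest share are described, from extracellular and membrane proteins to the kinases and calcium sensors below them. Since they were taken for their share, the share itself is a description.

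Relaxin and melanocortin receptors and their accessory proteins were called in 2 of 5 tested genes, which had the largest called changes of the 10 families described. Rxfp1, the relaxin receptor that raises cAMP, had 1.94, 2.32 and 3.65 CPM in WT and 5.66, 6.98 and 8.95 CPM in KI, so that the lowest KI library lay far above the highest WT library. Rxfp1 (Entrez 381489, chr3:79641600-79737951) rose 2.79-fold (1.48 ± 0.13, edgeR adjusted p = 1.35e-06). Mrap2, an accessory protein of melanocortin and related receptors, had 10.6, 11.7 and 13.1 CPM in WT and 2.34, 4.98 and 9.37 CPM in KI, also without overlap. Mrap2 (Entrez 244958, chr9:87144236-87184051) was 2.41-fold lower (-1.27 ± 0.18, edgeR adjusted p = 0.000178). KI saline 1, the highest KI library for Mrap2, was well above the median of its genotype.

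Adrenergic receptors, which answer noradrenaline and adrenaline, were called in 4 of 8. The alpha-1 subtypes Adra1d and Adra1b rose without overlap, Adra1d from 3.53, 4.84 and 6.08 CPM in WT to 6.75, 8.18 and 8.69 in KI (0.75 ± 0.10, edgeR adjusted p = 9.14e-05), and Adra1b from 1.18, 1.57 and 2.05 to 2.21, 2.70 and 3.62 CPM (0.80 ± 0.15, edgeR adjusted p = 0.00221). Adrb1, the beta-1 receptor, was also higher (0.65 ± 0.19, edgeR adjusted p = 0.0377), but of the fits without 1 library 5 kept that call (those without KI CFA 1, KI saline 2, KI saline 3, WT CFA 4 or WT saline 2), with 0.57 to 0.66 in the rest. Adra2c, an inhibitory alpha-2 subtype, fell by 0.20 ± 0.05 (edgeR adjusted p = 0.0187). It lost its call without KI CFA 3 (-0.18), without WT CFA 1 and 2 (-0.20) or with the muscle score as a covariate (-0.17). The third alpha-1 subtype, Adra1a, was at 0.57 without passing (edgeR adjusted p = 0.0859). With KI CFA 3 left out, or WT CFA 1 and 2 together, the family had 2 calls.

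Cadherins, calcium dependent adhesion proteins, had 10 calls in 21, of which 7 were higher. Cdh12 had 6.33, 7.42 and 10.0 CPM in WT and 11.1, 13.8 and 16.1 CPM in KI and rose by 0.83 ± 0.11 (edgeR adjusted p = 8.92e-05). Cdh1, E-cadherin, went from 204, 227 and 241 CPM to 252, 271 and 282 CPM (0.25 ± 0.04, edgeR adjusted p = 0.000273). Neither overlapped between genotypes. Cdh7 (0.72 ± 0.17), Cdh15 (0.45 ± 0.11) and Cdh11 (0.18 ± 0.04) rose too, and Cdh4, R-cadherin, fell (-0.45 ± 0.11, edgeR adjusted p = 0.0151). Without KI saline 2 the family had 6 calls, with the muscle score as a covariate 4, and without WT CFA 1 and 2 also 4. Cdh4 (-0.48 and -0.38) and Cdh15 (0.47 and 0.43) lost their calls in both of the latter fits.

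The receptor tyrosine phosphatase family, named for members that remove phosphate from tyrosine, had 7 calls in 19. Whether each member has this activity was not tested. Ptprn, a protein of dense-core vesicle membranes, had 380, 397 and 443 CPM in WT and 310, 339 and 368 CPM in KI and fell by 0.25 ± 0.04 (edgeR adjusted p = 0.000687). Its relative Ptprn2 fell as well (-0.20 ± 0.05, edgeR adjusted p = 0.0217), without a call when KI CFA 2, KI saline 3, WT CFA 3 (-0.18 in each) or KI CFA 3 (-0.19) was left out. Ptpra fell by 0.13 ± 0.03 without overlap (edgeR adjusted p = 0.00808). Ptprt rose by 0.29 ± 0.06 (edgeR adjusted p = 0.00307) and Ptprm by 0.26 ± 0.07 (edgeR adjusted p = 0.0236), the latter not without KI saline 4 or WT CFA 3 (0.24 in both). Ptprq, near 1 CPM, fell by 0.66 ± 0.18 (edgeR adjusted p = 0.0312), a call kept only without KI CFA 4, KI saline 2, WT CFA 1, WT CFA 4, WT saline 1 or WT saline 3 (-0.66 to -0.59 in the other 10). The family had 4 calls without KI CFA 3, KI saline 3 or KI saline 4 and 3 without WT CFA 3.

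Sodium-potassium pumps, which restore the ion gradients after action potentials, and their partner proteins had 5 calls in 13, 2 higher and 3 lower. Among the small FXYD proteins that tune the pump, Fxyd7 had 263, 282 and 331 CPM in WT and 197, 208 and 232 CPM in KI, without overlap. Fxyd7 (Entrez 57780, chr7:31042515-31051454) fell 1.36-fold (-0.44 ± 0.04, edgeR adjusted p = 6.59e-06), by 0.55 with saline and by 0.33 with CFA. Fxyd5 fell by 0.40 ± 0.11 (edgeR adjusted p = 0.0297), which did not hold without KI CFA 4, KI saline 1, KI saline 2 (-0.36 to -0.35), WT CFA 3 (-0.37) or WT CFA 4 (-0.40). The call of Fxyd7 held under every alternative run, and the beta subunit Atp1b1 was at -0.02.

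**Figure D3:**
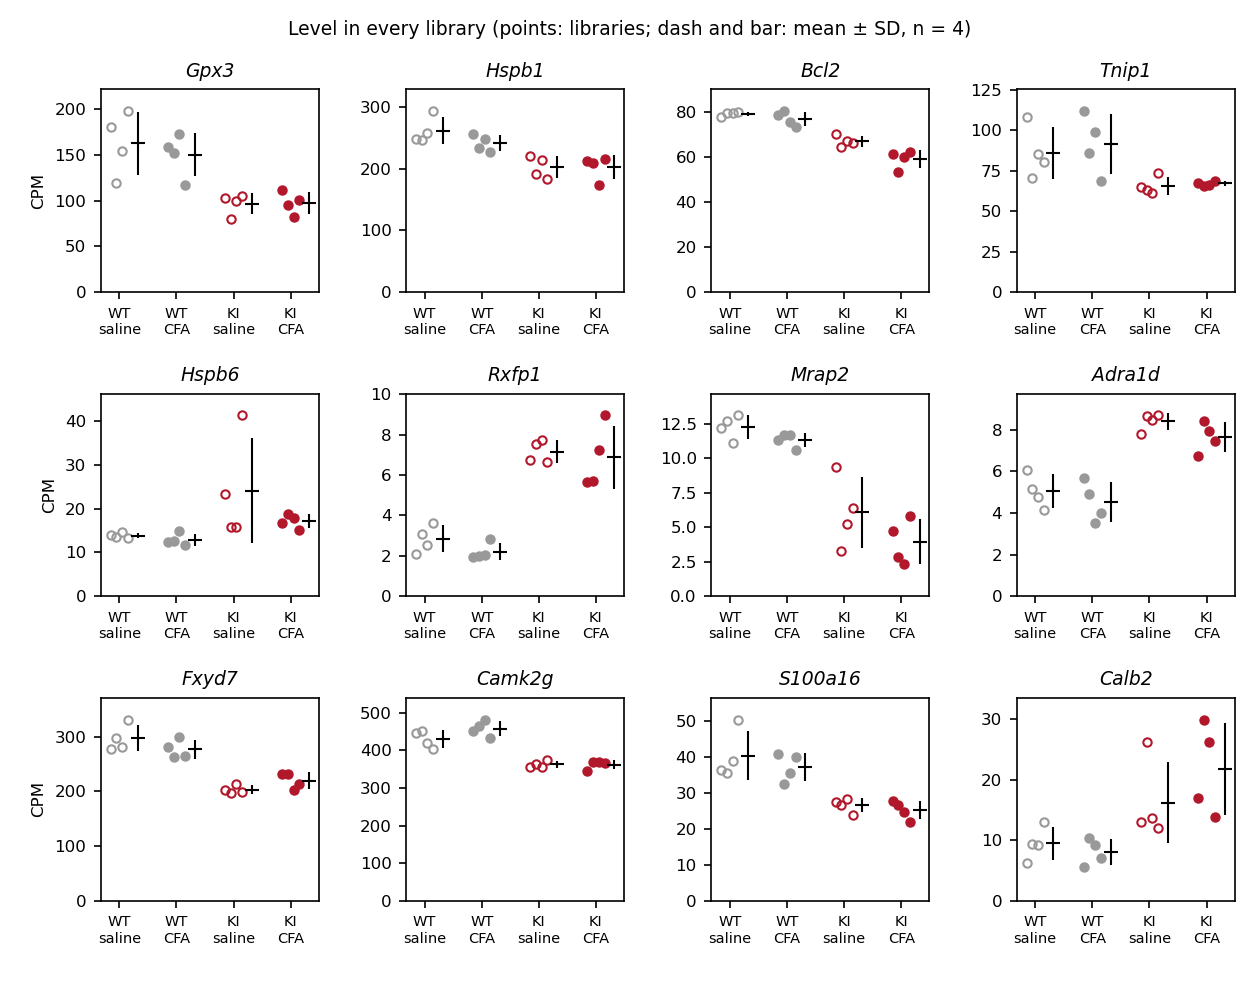
Level (y axis, CPM from 0) of 12 genes in every library, by group (x axis; grey WT, red KI, open saline, filled CFA), with the mean ± SD of each group (n = 4). Bcl2, Fxyd7, Camk2g and Mrap2 lie lower and Rxfp1 and Adra1d higher in all 8 KI libraries, and KI saline 4 and KI saline 1 stand out for Hspb6.

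Adenylyl cyclases and phosphodiesterases make and degrade cAMP and cGMP. Of 29 genes 11 were called, 5 higher and 6 lower. Adcy7 had 8.70, 10.8 and 12.4 CPM in WT and 6.21, 6.87 and 8.97 in KI and fell by 0.57 ± 0.08 (edgeR adjusted p = 9.02e-05), Adcy2 fell by 0.22 ± 0.04 (edgeR adjusted p = 0.00375) and Adcy3 by 0.21 ± 0.05 (edgeR adjusted p = 0.0175). Adcy8, a calcium stimulated cyclase, rose by 0.41 ± 0.09 (edgeR adjusted p = 0.00488), from a median of 14.2 to 20.3 CPM. Pde2a, which degrades both cyclic nucleotides, fell by 0.20 ± 0.03 (edgeR adjusted p = 0.00067), from 108, 112 and 123 CPM to 91.8, 99.1 and 102 CPM without overlap. Pde3b fell by 0.21 ± 0.06 (edgeR adjusted p = 0.0298), but not without KI CFA 2, KI CFA 4, KI saline 4, WT CFA 1, WT CFA 2, WT CFA 4, WT saline 1 or WT saline 2 (-0.20 to -0.17). The family's calls numbered 6 without KI CFA 3, KI CFA 4, KI saline 4 or WT CFA 3. They numbered 7 without WT CFA 1 or WT CFA 4, and 4 with the muscle score as a covariate.

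Phospholipase C and protein kinase C form the branch from receptors to calcium and lipid signals, and 8 of 21 genes were called, 5 higher and 3 lower. Plch2 had 6.12, 7.22 and 10.8 CPM in WT and 3.06, 4.20 and 5.75 CPM in KI and fell by 0.80 ± 0.12 (edgeR adjusted p = 0.000241). Prkcq, protein kinase C theta, had 101, 111 and 121 CPM in WT and 129, 139 and 150 CPM in KI and rose by 0.33 ± 0.04 (edgeR adjusted p = 5.69e-05). Neither gene overlapped between genotypes. Plcg2 (0.41 ± 0.10), Plcb3 (0.18 ± 0.05) and Prkcd (0.13 ± 0.03) rose. Prkcb fell by 0.19 ± 0.05 (edgeR adjusted p = 0.017) but not without KI CFA 3 (-0.17) or WT CFA 3 (-0.16). With the muscle score as a covariate Plcb3 (0.19), Prkcd (0.11) and Prkcb (-0.15) lost their calls. Prkcb and Prkcd also lost theirs without WT CFA 1 and 2 (-0.18 and 0.13). Without KI CFA 3 the family had 5 calls.

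All 6 calls in 16 calmodulin kinases and relatives were lower in KI. These enzymes carry calcium signals to synapses and the nucleus. Camk2g had 402, 448 and 481 CPM in WT and 344, 364 and 375 CPM in KI (-0.29 ± 0.03, edgeR adjusted p = 2.5e-05). Dclk1, a doublecortin-like kinase of microtubules, had 196, 227 and 242 CPM in WT and 158, 176 and 186 CPM in KI (-0.36 ± 0.04, edgeR adjusted p = 2.44e-05). Camkk1, the activating kinase, fell by 0.23 ± 0.05 (edgeR adjusted p = 0.00401), and these 3 genes had no overlap.

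The remaining calmodulin kinase calls were smaller or less firm. Camk1d fell by 0.24 ± 0.06 (edgeR adjusted p = 0.0151) and lost its call with the muscle score as a covariate (-0.22). Camk2n2, an inhibitor protein of the kinase, fell by 0.18 ± 0.05 (edgeR adjusted p = 0.0179), without a call when KI CFA 3 (-0.17) or WT CFA 3 (-0.15) was left out. Camk1 (-0.21 ± 0.06, edgeR adjusted p = 0.0458) kept its call only without KI CFA 1, KI saline 3, WT saline 1, WT saline 2, WT saline 3 or WT saline 4, with -0.22 to -0.20 in the other 10. The other 10 genes of the family lay on both sides of 0, and the family median was -0.09.

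Neuronal calcium sensors and calbindins had 11 calls in 21, with 5 higher and 6 lower. Without Calb1 and Necab2, which are also A-fibre markers, 9 of 19 were called (47.4%), and with genes of every marker list left out adrenergic receptors (50%), cadherins (52.6%) and S100 proteins (55.6%) had higher shares. Calb2, calretinin, had 5.57, 9.23 and 13.0 CPM in WT and 12.1, 15.4 and 29.9 CPM in KI, with 29.9, 26.3 and 26.2 CPM in KI CFA 2, KI CFA 3 and KI saline 2. Calb2 (Entrez 12308, chr8:110142526-110168212) rose 2.16-fold (1.11 ± 0.20, edgeR adjusted p = 0.00146), and the genotypes overlapped through WT saline 4 alone. Among potassium channel-interacting proteins the calls went both ways: Kcnip2 rose by 0.25 ± 0.03 (edgeR adjusted p = 7.91e-05) and Kcnip3, also called DREAM, fell by 0.32 ± 0.04 (edgeR adjusted p = 0.000103). Hpcal1 fell by 0.26 ± 0.05 (edgeR adjusted p = 0.00158) and Necab3 by 0.17 ± 0.04 (edgeR adjusted p = 0.00908), while Vsnl1 rose by 0.26 ± 0.06 (edgeR adjusted p = 0.0106). Necab3 lost its call with the muscle score as a covariate (-0.17). The 3 calmodulin genes were not called (-0.09, -0.09 and -0.03).

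S100 proteins, small calcium binders, had 5 calls in 11, all lower in KI. S100a16 had 32.6, 37.7 and 50.4 CPM in WT and 21.9, 26.7 and 28.4 CPM in KI, without overlap, and fell by 0.58 ± 0.08 (edgeR adjusted p = 6.66e-05). S100a11 fell by 0.37 ± 0.06 (edgeR adjusted p = 0.00087), S100a13 by 0.48 ± 0.09 (edgeR adjusted p = 0.00149), and S100b, a gene of glia, by 0.27 ± 0.05 (edgeR adjusted p = 0.00235). S100a3 fell by 1.24 ± 0.32 (edgeR adjusted p = 0.0187), from a median of 0.393 CPM to 0.171 CPM. Its call was lost with the muscle score as a covariate (-1.13). S100a13 overlaps S100a1 in the genome, and reads of the overlap cannot be separated.

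S100a8 and S100a9, made by neutrophils, were not called (1.08 and 0.92, edgeR adjusted p = 0.374 and 0.417), and reached 56.5 and 77.8 CPM in KI CFA 3, where the neutrophil markers stood highest (4.05). They belong to that marker list themselves. The 4 called genes other than S100b lie on chromosome 3, where the S100a genes form a cluster. Of all tested genes on chromosome 3, 91 of 748 were called (12.2%, against 8.96% of all genes).

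**Figure D4:**
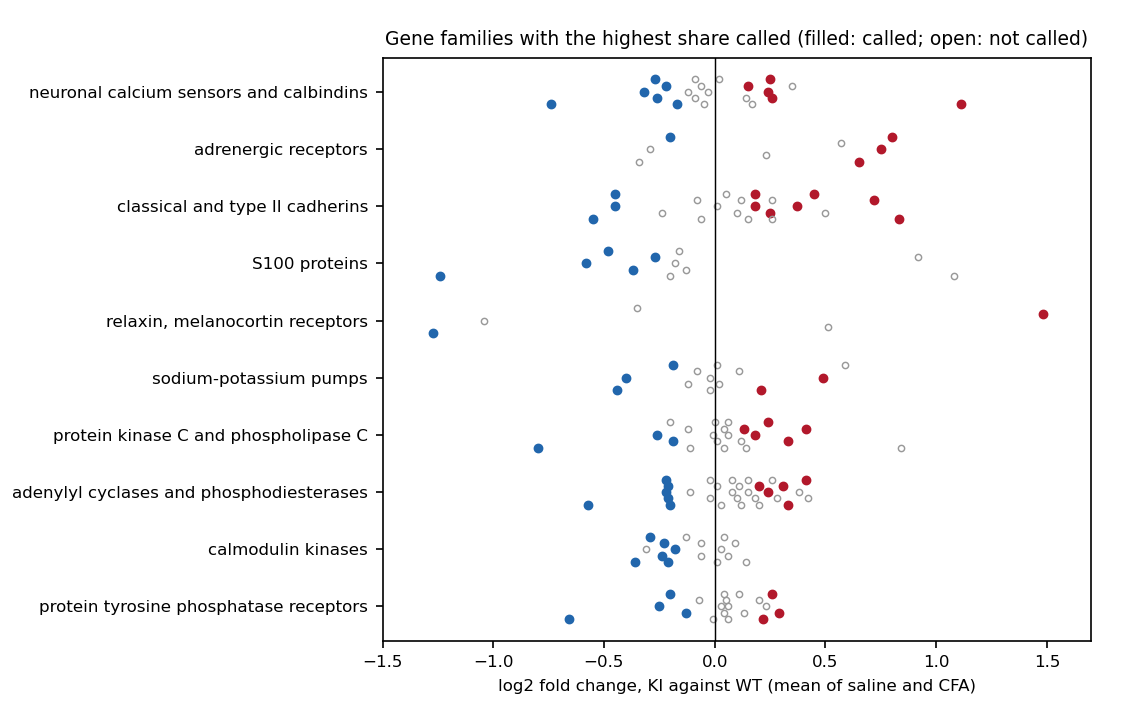
Log2 fold change of KI against WT (x axis) of every tested member of the 10 gene families with the highest share of calls (rows). Filled points were called (red higher, blue lower) and open points were not; S100 proteins and calmodulin kinases have calls on the lower side alone, the other families on both.

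Genes on no marker list with the largest rises and no overlap between genotypes were, besides Rxfp1, Wdr72 (1.06 ± 0.11), Vstm2b (1.05 ± 0.13), Pln, phospholamban, which restrains the calcium pump of the sarcoplasmic reticulum (1.04 ± 0.17), Bmp3 (1.02 ± 0.17), Pcdh8 (0.98 ± 0.11), Ankrd34b (0.97 ± 0.17), Perm1, a muscle regulator of oxidative metabolism (0.93 ± 0.19), Fam163a (0.90 ± 0.15), Rbm46 (0.89 ± 0.17), the kinesin Kif21b (0.86 ± 0.09) and the orphan nuclear receptor Esrrb (0.84 ± 0.13). Pln had 1.35, 1.75 and 2.04 CPM in WT and 2.16, 3.63 and 4.89 CPM in KI. Kif21b had 15.2, 20.7 and 26.7 CPM in WT and 29.5, 37.3 and 44.0 CPM in KI. Perm1 was highest in KI saline 4 (5.59 CPM) and KI saline 1 (4.35 CPM), the libraries richest in muscle RNA. Its call ended with the muscle score as a covariate (0.74, edgeR adjusted p = 0.0588). Without the 4 KI libraries richest in muscle RNA its difference was 0.75.

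The largest falls on the same terms, besides Mrap2, were those of Hc, complement component C5 (-1.51 ± 0.22), Gabrg3, a GABA receptor subunit (-1.47 ± 0.17), C1qtnf7 (-1.34 ± 0.17), Stum (-1.29 ± 0.18), Tmc5 (-1.22 ± 0.21), Ptgir, the receptor of prostacyclin (-1.11 ± 0.08), Slc5a7, the choline transporter (-1.08 ± 0.16), Gm13848 (-1.13 ± 0.15), the G-protein subunit Gng8 (-1.01 ± 0.09), the potassium channel subunit Kcnv1 (-0.99 ± 0.09) and Galr1, a receptor of galanin (-0.94 ± 0.13). Ptgir had 73.5, 87.7 and 112 CPM in WT and 35.8, 43.2 and 49.0 CPM in KI and was 2.16-fold lower (edgeR adjusted p = 1.63e-07). Tmc5 and Slc5a7 had larger differences with CFA (-1.84 and -1.48) than with saline (-0.60 and -0.68), but neither interaction passed after adjustment (unadjusted p = 0.00704 and 0.0261).

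The smallest p values among genes on no marker list, Ptgir included, belonged to falls. Nptx1, a secreted pentraxin of synapses, had 278, 298 and 348 CPM in WT and 188, 204 and 211 CPM in KI (-0.57 ± 0.04, edgeR adjusted p = 6.86e-08). Syndig1l (-0.83 ± 0.06), Pcp4l1 (-0.76 ± 0.06), Trappc3l (-0.82 ± 0.06) and the kinase Stk32c (-0.64 ± 0.05) followed, each without overlap and each called with saline and with CFA alone. All 5 kept their calls under every alternative run.

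**Figure D5:**
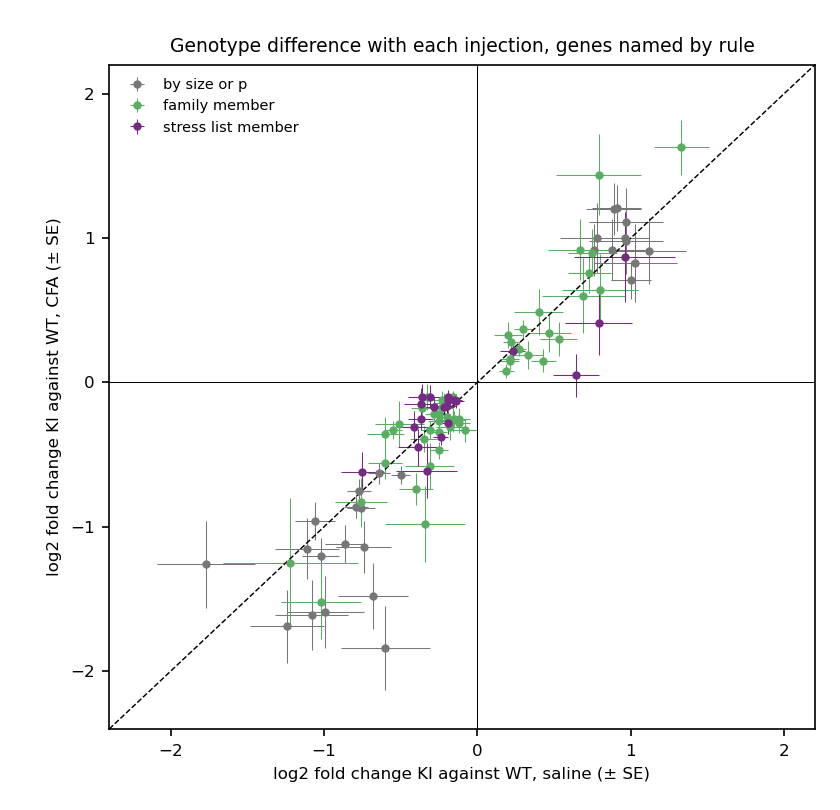
Log2 fold change of KI against WT with saline (x axis) and with CFA (y axis), each ± SE from 4 against 4 libraries, for the called genes named by rule (purple stress list members, green family members, grey genes taken by size or p). The dashed line marks equal differences, and the genes were called on the mean of both axes, which favours points of equal sign.

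Of the 102 called genes named by the rule 83 kept their call without each of the 16 libraries in turn and none changed sign. Over all called members, the count that kept it was 12 of 24 on the stress lists and 163 of 231 in the families.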

How the data were processed

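Per the labels' protocols, poly-A libraries of ganglion RNA were sequenced as single-end reads. The submitters' processing notes name build mm10, the aligner TopHat2 2.1.1 with Bowtie2 2.3.5.1, the counter HTSeq 0.6.1p1, and also SAMtools 1.5, bcl2fastq 2.20 and FastQC. The annotation and the strand mode of counting are not given in the sources used here. The authors deposited 1 table of raw read counts per gene for the 16 libraries, with 24982 entries, 4755 of them at 0 throughout. The 28 entries without an Entrez identifier (0.192% of counts) were kept in the counts but had no genome position. Of 24954 identifiers 24891 (99.7%) matched RefSeq. Totals were 22742209 to 40910947 counts, at which 3 counts equal 0.0733 to 0.132 CPM, counting error only.

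Counts were fitted in edgeR 4.0.16 (R 4.3.3, quasi-likelihood test) with TMM factors, filterByExpr and 1 mean per group, leaving 15507 genes and 12 residual degrees of freedom. The biological coefficient of variation was 11.8%. The contrast averaged the KI and WT difference over both injections, called at an adjusted p under 0.05. A library is a pool of mice, and its replicates are pools of one group. Alternatives used DESeq2 1.42.0, limma 3.58.1 (voom), other scalings and filters, a replicate block, a muscle covariate and libraries left out. The fit of the genotype main effect was tested on simulated data for 15507 genes, where it called 86% of 100 genes changed by 0.5 and 98% of 100 changed by 1 on the log2 scale, with 8 false calls among 192. The changed genes of the simulated libraries had at least 1 CPM. Their counts were drawn from the fitted dispersion, without the further gene-wise spread that the quasi-likelihood test estimates. Simulated libraries also held no uneven muscle RNA and no outlying library, so these rates need not hold in the real libraries. Changes under 0.5 were not simulated, while the median size among called genes was 0.29.

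Members and lists were chosen with earlier results of these data known. Named genes were Ntrk3, up to 4 called genes per stress list (or the 2 with the smallest p), up to 6 called genes in each of the 10 families with the highest share, the 12 largest rises and 12 largest falls without overlap among called genes of at least 1 CPM on no marker list, and the 6 smallest p on no such list. Some items that the rule names are not reported here. Other genes were named for their roles after their values were seen.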

Additional observations from a re-analysis of the deposited data

Results flagged for a closer look

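Within groups of 4, 1 library stood apart from the other 3 in 29 of 424 groups (6.84%), with a gap to the nearest library, as a share of the group's range, above Dixon's 95% critical value. Chance flags about 1 in 20 groups. WT saline 4 accounted for 8 of the 29, WT CFA 3 for 5 and WT CFA 4 for 3.

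WT saline 4 had Sel1l lowest at 137 CPM against 147 in the nearest library (gap 0.86), Becn1 highest at 143 CPM against 121 in the nearest library (gap 0.88) and Psma7 highest at 174 CPM against 131 in the nearest library (gap 0.85). WT saline 4 also had Cdh11 lowest at 129 CPM against 148 in the nearest library (gap 0.83), Cdh15 highest at 11.6 CPM against 8.79 in the nearest library (gap 0.84) and Plcb3 lowest at 573 CPM against 701 in the nearest library (gap 0.83). WT saline 4 also had Ptprm lowest at 36.6 CPM against 52.6 in the nearest library (gap 0.84) and Stk32c highest at 62.8 CPM against 50.9 in the nearest library (gap 0.87). WT CFA 3 had Becn1 highest at 131 CPM against 118 in the nearest library (gap 0.86), Plch2 highest at 10.8 CPM against 7.7 in the nearest library (gap 0.85) and Pcdh8 lowest at 3.99 CPM against 5.32 in the nearest library (gap 0.86). WT CFA 3 also had Gng8 highest at 17.5 CPM against 13.4 in the nearest library (gap 0.83) and Kcnv1 highest at 63 CPM against 46.7 in the nearest library (gap 0.88). WT CFA 4 had Phb highest at 88.1 CPM against 82.3 in the nearest library (gap 0.94), Rxfp1 highest at 2.85 CPM against 2.07 in the nearest library (gap 0.86) and Plcg2 highest at 5.51 CPM against 4.42 in the nearest library (gap 0.83). KI CFA 2 had Camk2n2 highest at 78.4 CPM against 71.2 in the nearest library (gap 0.88) and Fam163a highest at 3.42 CPM against 2.29 in the nearest library (gap 0.86). KI saline 4 had Map3k1 highest at 34.7 CPM against 30.4 in the nearest library (gap 0.89) and Kcnip2 lowest at 120 CPM against 130 in the nearest library (gap 0.94). WT CFA 1 had Cdh7 lowest at 0.954 CPM against 1.35 in the nearest library (gap 0.87) and Syndig1l highest at 26.1 CPM against 24.7 in the nearest library (gap 0.88). WT saline 2 had Camk2n2 highest at 88.1 CPM against 78 in the nearest library (gap 0.92) and Ptprn highest at 443 CPM against 401 in the nearest library (gap 0.89). KI CFA 3 had Hspb1 lowest at 173 CPM against 210 in the nearest library (gap 0.85). KI CFA 4 had Gclm highest at 103 CPM against 93.4 in the nearest library (gap 0.84). KI saline 1 had Ctsz lowest at 57.7 CPM against 64.4 in the nearest library (gap 0.85). KI saline 2 had Calb2 highest at 26.2 CPM against 13.6 in the nearest library (gap 0.89). WT CFA 2 had Esrrb highest at 5.21 CPM against 4.36 in the nearest library (gap 0.88).

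Reported differences of these genes were computed with the library in place, and the fits without it are given where a call ended.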

How the results depend on the processing

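Of the 1390 calls (671 higher, 719 lower), leaving out 1 library in turn left 993 to 1430 (488 to 701 higher, 505 to 756 lower), 284 to 905 for saline alone, 241 to 652 for CFA alone and 0 for the interaction throughout. A muscle covariate left 703 calls (323 higher, 380 lower), of which 688 were among the 1390. Without the 4 KI libraries richest in muscle RNA, an alternative chosen after seeing the data, 436 were (193 higher, 243 lower), 413 of them shared, with fewer libraries fitted. That fit left KI saline 2 as the only library of its group, so no conclusion is drawn from its counts. An adjusted p under 0.01 gave 630 calls (291 higher, 339 lower), and a change of at least 1.5-fold 254 (140 higher, 114 lower). DESeq2 called 1873 genes, 1487 with saline and 663 with CFA. Without WT CFA 1 and 2, also chosen after seeing the data, 1467 were called. The replicate block gave 1231 calls, 1176 of them shared, 484 with saline and 422 with CFA. Same-numbered libraries did not deviate together (24 pairs, r from -0.329 to 0.247, 4 of them over 0.1), so the numbers were not taken as pairs. Other scalings, filters and limma-voom gave 1254 to 1572 calls. Of the 102 called genes named by rule 52 kept the call under every alternative and none changed sign. With the muscle covariate 27 lost it. Those on the stress lists were Hspb6, Bax, Npc2, Lamp2, Psmb3, Psmb9, Psma7 and Map3k1. In the families they included Necab3, Adra2c, Adrb1, Cdh4, Cdh15, S100a3, Plcb3, Prkcb, Prkcd, Adcy3, Pde3b, Camk1d, Camk1, Ptpra, Ptprn2, Ptprm and Ptprq. The causes were not tested.

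Depth limits transcripts near 1 CPM or lower such as Hrk, S100a3 and Wnt7b, where 3 counts equal 0.0733 to 0.132 CPM. Each library pools mice, so the spread between animals was not measured.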

Other observations

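Other families held single genes that differed clearly although fewer of their members were called, and these were chosen after their values were seen. Both subunits of the serotonin-gated channel fell. Htr3a had 201, 222 and 240 CPM (lowest, median, highest) in WT and 107, 146 and 152 CPM in KI (-0.65 ± 0.07, edgeR adjusted p = 7.63e-06), and Htr3b had -0.55 ± 0.06 (edgeR adjusted p = 2.44e-05). Neither overlapped between genotypes, and 3 of 13 serotonin receptors were called (23.1%, against 8.96% of all genes). Of 20 granin and peptide processing genes 7 were called (35%), 5 of them lower. Scg2, a granin of dense-core vesicles, fell from a median of 543 to 430 CPM (-0.42 ± 0.05, edgeR adjusted p = 2.88e-05). Pcsk1, which cuts prohormones, fell by 0.45 ± 0.05 (edgeR adjusted p = 1.77e-05) and Pam, which amidates peptides, by 0.27 ± 0.04 (edgeR adjusted p = 0.000273), both without overlap.

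Rises without overlap included Ano1, a calcium-activated chloride channel, with 7.33, 10.5 and 11.2 CPM in WT and 14, 16.4 and 21.4 CPM in KI (0.80 ± 0.09, edgeR adjusted p = 1.85e-05). Cbln2, a synaptic organizer, rose by 0.48 ± 0.05 (edgeR adjusted p = 1.23e-05), and the kainate receptor subunit Grik1 by 0.28 ± 0.04 (edgeR adjusted p = 8.92e-05). All 5 calls in 33 nuclear receptors (15.2%, against 8.96% of all genes) were higher, among them Esrrg, a relative of Esrrb (0.81 ± 0.10, edgeR adjusted p = 4.84e-05). Wnt7b, a secreted WNT ligand at low level, had 0.114, 0.158 and 0.247 CPM in WT and 0.32, 0.73 and 0.937 CPM in KI (2.01 ± 0.28, edgeR adjusted p = 0.000104). The 10 genes from Htr3a to Wnt7b kept their calls under every alternative that tested them. Wnt7b was too low for the filter of at least 1 CPM in 4 libraries, and its lowest WT level is near 3 counts. Drd2, a dopamine receptor, fell by 0.79 ± 0.19 (edgeR adjusted p = 0.0148) and the muscarinic receptor Chrm2 by 0.58 ± 0.11 (edgeR adjusted p = 0.00216). Neither kept its call in all the alternative fits.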
